A study of Mus musculus with 22 samples.

Results

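The genes described here are 9 factors that sit at the output of the circadian clock or in its auxiliary loops: Dbp, Tef, Hlf, Nfil3, Ciart, Bhlhe40, Bhlhe41, Rora and Usp2. They were chosen by name, for their place in the clock, from the 55341 rows of the striatum count table and the 47643 rows of the white adipose tissue (WAT) count table, and all 9 were found in both and passed the filter on low counts. RNA was sequenced from C57BL/6J wild-type mice that were labelled male and aged 8 weeks. The control libraries (2 of striatum, 4 of WAT) carried the label of hypothyroid animals given PTU (propylthiouracil, a drug that blocks the synthesis of thyroid hormone) for 2 weeks. The treated libraries carried the label TH (thyroid hormone) with a time, 12 h or 24 h in striatum and 6 h or 24 h in WAT, with 4 libraries at each time. The study's methods describe TH as a single intraperitoneal injection of T3 and T4. The labels of the TH libraries do not mention PTU, and the study's own overview, which lists PTU in food for WAT, leaves that entry empty for striatum. Replicates carry numbers, but no label says that each came from a separate animal, so the p-values measure only the spread between these libraries. The hour of the light cycle at which tissues were taken was not given in the sources used here, so the time after injection and the hour of the day cannot be told apart.

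In the clock, the CLOCK and BMAL1 proteins (BMAL1 is encoded by Arntl) bind E-box elements and activate the Per, Cry and Nr1d genes, whose products turn that activity off again within a day. DBP, TEF and HLF are the PAR bZIP transcription factors, which carry the rhythm to other genes by activating D-box elements, and NFIL3 (also called E4BP4) represses the same elements. CIART, BHLHE40 and BHLHE41 repress CLOCK and BMAL1 activity, RORA activates Arntl through elements that the NR1D proteins repress, and USP2 is an enzyme that removes ubiquitin from clock proteins among others. In most peripheral tissues the mRNA of Dbp peaks and that of Nfil3 is low at the same part of the day.

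The sequence before the start sites of these genes was read for the E-box CACGTG, which is the same on both strands. RefSeq promoter windows (build GRCm38.p6, 250 bases before the start site were searched) were at hand for 8 of the 9 genes (all but Bhlhe40), in 9 windows since Tef has a pair. The stretches below run 5′ to 3′ on the strand of the gene, leave out bases that lie in an annotated exon, and show each E-box in capitals. Ciart is shown for its 3 E-boxes, Tef and Bhlhe41 for 1 each, and Dbp, with no match in its window, as the gene with the largest response. They lie at chr3:95882252-95882478 on the minus strand for Ciart, at chr15:81811164-81811413 on the plus strand for Tef, at chr6:145865559-145865670 on the minus strand for Bhlhe41 and at chr7:45704997-45705087 on the plus strand for Dbp.
Ciart: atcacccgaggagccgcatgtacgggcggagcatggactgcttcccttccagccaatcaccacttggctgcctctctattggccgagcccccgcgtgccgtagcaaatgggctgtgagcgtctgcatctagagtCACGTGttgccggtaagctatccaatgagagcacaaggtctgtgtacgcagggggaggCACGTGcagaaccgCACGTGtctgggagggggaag
Tef: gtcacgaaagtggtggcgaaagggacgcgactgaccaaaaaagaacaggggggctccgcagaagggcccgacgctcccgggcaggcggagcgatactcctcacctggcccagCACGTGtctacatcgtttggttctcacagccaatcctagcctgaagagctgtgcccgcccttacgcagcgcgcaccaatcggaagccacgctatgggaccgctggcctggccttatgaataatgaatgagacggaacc
Bhlhe41: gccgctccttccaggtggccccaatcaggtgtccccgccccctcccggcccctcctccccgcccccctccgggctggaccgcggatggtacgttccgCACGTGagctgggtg
Dbp: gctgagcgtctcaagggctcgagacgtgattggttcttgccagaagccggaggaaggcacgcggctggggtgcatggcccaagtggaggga

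The E-boxes of Ciart began 116, 58 and 44 bases before the start site, at the positions -116, -58 and -44. An E-box was present in 6.02% of all 32851 windows and 3 or more were present in 0.0609%. The E-box of Bhlhe41 began at -153, and those of the Tef windows at -127 and -138. The Tef window with the E-box at -127 is not shown above, since it had no exon-free stretch long enough. The windows of Dbp, Hlf, Nfil3, Rora and Usp2 had no E-box. The D-box TTANGTAA, which reads TTACNTAA on the other strand, was present in 2.06% of windows and in none of these genes. The half-site AGGTCA, which reads TGACCT on the other strand and to which ROR, NR1D and thyroid hormone receptors can bind, occurred in 4607 of the 32851 windows and, among these genes, 1 time, at -12 of Nfil3. That match lies in an annotated exon of Nfil3. A match is a description of the letters in the window and not of a bound site.

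The genes lie on 7 chromosomes in the GENCODE M21 annotation of GRCm38. Dbp spans chr7:45705088-45710203 on the plus strand, Nfil3 chr13:52967209-52981073 on the minus strand, Ciart chr3:95878503-95882251 on the minus strand and Rora chr9:68653786-69388246 on the plus strand. Dbp shares 539 exonic bases with Sphk2, a lipid kinase gene on the opposite strand, and the strand setting of the counting was not stated. Sphk2 had a mean of 354 ± 41 (SD, n = 4) normalised counts in the WAT PTU libraries and 383 ± 27 (SD, n = 4) at 6 h, a log2 difference of 0.11 ± 0.11 (SE, adjusted p = 0.555, edgeR). At 24 h it had 506 ± 59 (SD, n = 4) and was called higher than in the PTU libraries by 0.51 ± 0.11 (SE, adjusted p = 0.00831) and than at 6 h by 0.40 ± 0.11 (SE, adjusted p = 0.0477, edgeR), and its part in the Dbp counts at 24 h was not tested.

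The libraries held 8056443 to 10163849 counts in striatum and 17298747 to 26963433 in WAT. Hr and Klf9, which respond to thyroid hormone in many cell types, were higher at every time in both tissues, Hr by 3.56 ± 0.18 (SE) on the log2 scale in WAT at 6 h and by 2.49 ± 0.21 (SE) in striatum at 12 h. All 6 adipocyte markers were present in WAT, with a summed level of 241180 to 488643 normalised counts, against at most 71.7 in striatum. Markers of skeletal muscle summed to between 868 and 484745 normalised counts in WAT, the highest value in PTU replicate 4. In striatum, 6 cortical neuron markers summed to between 4079 and 23910 normalised counts, with replicate 2 of the 24 h group highest. That library had the lowest sum of striatal projection neuron markers, 2240, where the others lay at 16268 or more. Although all animals were labelled male, 6 of the 10 striatum libraries had Xist at 22070 to 33693 normalised counts, all 4 of the 24 h group among them, and the other 4 had at most 17.8.

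In WAT at 6 h, the activators of the D-box were higher than in the PTU controls and their repressor was lower. Dbp, Tef, Hlf, Ciart and Usp2 rose, Nfil3 fell, and Bhlhe40, Bhlhe41 and Rora did not pass the test (edgeR quasi-likelihood test, Benjamini-Hochberg adjusted p under 0.05 over 17928 genes). These 6 of 9 genes compare with 7.23% of all genes tested, the 5 that rose with 4.18% called higher and the 1 that fell with 3.05% called lower. The median log2 change of the 9 genes was 2.27, against -0.03 over all genes. Markers of brown adipocytes moved with this comparison, with 1 of 5 called higher (median log2 change 0.65). Their sum was 1649 to 3006 normalised counts in the PTU libraries, 4210 to 8751 at 6 h and 7251 to 21137 at 24 h. Markers of skeletal muscle (median -2.86) and of stratified or duct epithelium (1.70) had larger shifts, with 0 called and sums that overlapped between PTU and 6 h. The part of any of these markers in the changes was not tested. Bulk tissue was sequenced, so fewer cells of a type and less RNA per cell cannot be told apart for any of these changes.

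Dbp, the most rhythmic of the PAR bZIP genes in most tissues, had 56.7, 106.5, 52.3 and 241.0 normalised counts in the 4 PTU libraries of WAT and 2285, 2548, 3416 and 3279 at 6 h. Every 6 h library was therefore far above the highest control, which was PTU replicate 4. The change was 4.68 ± 0.42 (SE) on the log2 scale (25.7-fold, adjusted p = 4.3e-05, edgeR). Hlf, the least abundant of the 3 in this tissue, had 56.7, 52.7, 56.8 and 103.3 normalised counts in the PTU libraries and 457, 524, 497 and 654 at 6 h. It rose by 2.99 ± 0.27 (SE) on the log2 scale (7.95-fold, adjusted p = 4.24e-05, edgeR). Tef had 478, 623, 514 and 842 normalised counts in the PTU libraries and 2531, 2867, 3250 and 3201 at 6 h. Its rise of 2.27 ± 0.18 (SE) on the log2 scale (4.83-fold) was the smallest of the 3 (adjusted p = 1.79e-05, edgeR). The groups did not overlap for any of the 3 activators.

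Nfil3, the repressor, moved the other way. Its 363, 328, 298 and 267 normalised counts in the PTU libraries stood against 52.6, 48.3, 93.2 and 46.8 at 6 h. The 6 h libraries were all below the lowest control, and replicate 3 was the highest of them. Nfil3 fell by 2.39 on the log2 scale (adjusted p = 4.87e-05 with an SE of 0.22, edgeR), to 0.191 of its control level.

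**Figure D1:**
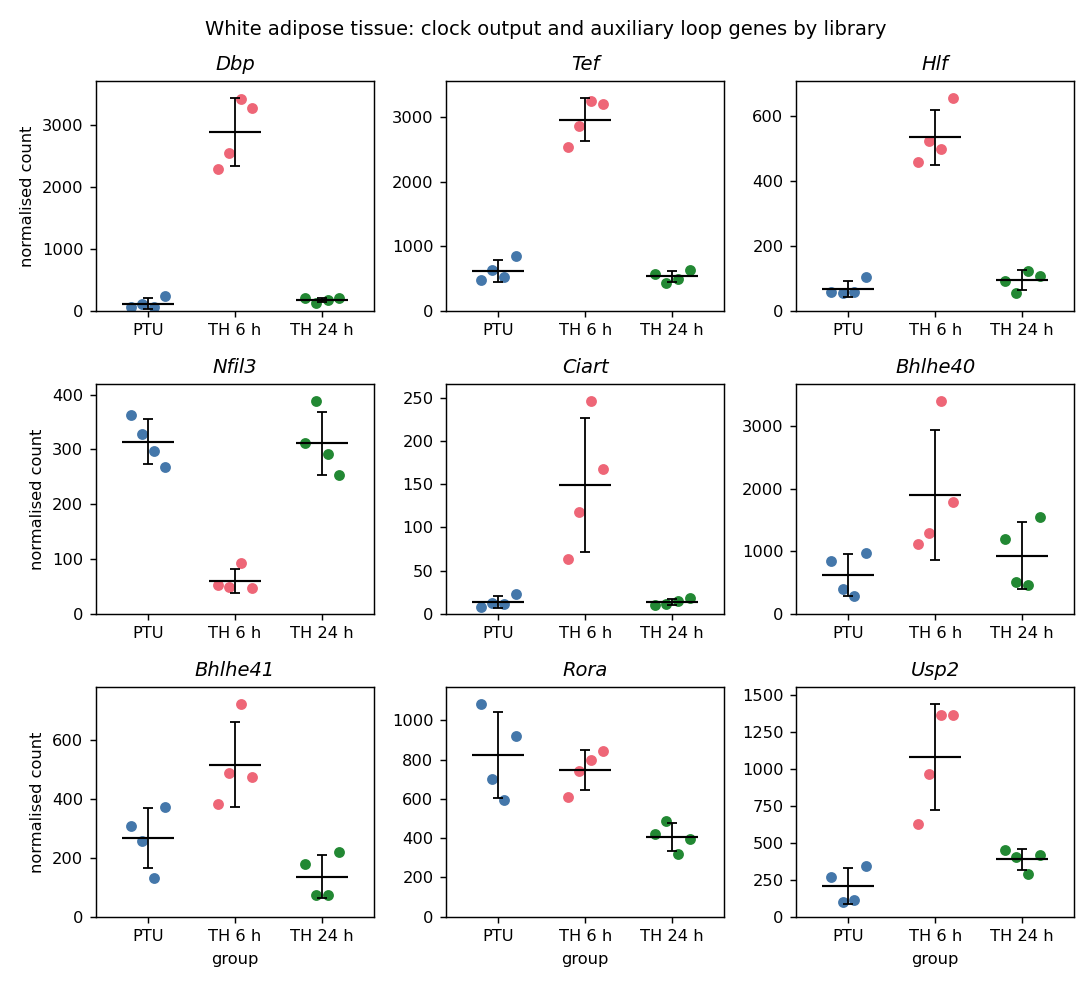
Normalised counts (y axis, linear, from 0) of the 9 genes in each WAT library by group (x axis), with 4 libraries per group as points, the mean as a horizontal line and the SD as bars. At 6 h the points of Dbp (2285 to 3416), Tef, Hlf, Ciart and Usp2 lie above all control points and those of Nfil3 (46.8 to 93.2) below them, and at 24 h the points of 8 genes overlap the control points while Rora (317 to 490) lies below it.

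Ciart, a repressor of CLOCK and BMAL1, was among the least abundant of the genes in the controls. It had 7.7, 12.0, 10.8 and 23.4 normalised counts in the PTU libraries and 63.8, 117.4, 246.3 and 167.5 at 6 h, and the groups did not overlap in spite of the wide spread at 6 h. It rose by 3.48 ± 0.43 (SE) on the log2 scale (11.2-fold, adjusted p = 0.000573, edgeR). Bhlhe40, a repressor that also answers to many stimuli outside the clock, had 841, 397, 286 and 970 normalised counts in the PTU libraries and 1116, 1289, 3405 and 1789 at 6 h. The groups did not overlap, but the difference of 1.61 ± 0.50 (SE) on the log2 scale missed the threshold (adjusted p = 0.0728, edgeR). It was called in 3 of 20 alternatives. These were DESeq2 (adjusted p = 0.0400), the fit without the filter on low counts (0.0338, edgeR) and that with the muscle markers as a covariate (0.00918, edgeR). None of the 12 fits that left out 1 library called it (adjusted p = 0.0608 to 0.172, edgeR), nor did the fit with the epithelium covariate (0.189, edgeR). Bhlhe41, its paralogue, had 308, 257, 131 and 374 normalised counts in the PTU libraries and 383, 489, 723 and 474 at 6 h. Its 2 groups were separated by only a narrow gap, and the difference of 0.95 ± 0.38 (SE) on the log2 scale did not pass the test (adjusted p = 0.143, edgeR).

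Rora was the 1 gene of the 9 whose groups overlapped at 6 h. It had 1082, 703, 593 and 921 normalised counts in the PTU libraries and 608, 741, 798 and 842 at 6 h, a log2 difference of -0.14 ± 0.18 (SE, adjusted p = 0.664, edgeR). Usp2, the ubiquitin protease, had 269, 98.2, 112 and 344 normalised counts in the PTU libraries and 627, 963, 1361 and 1365 at 6 h. All 6 h libraries were above the highest control, and the rise was 2.39 ± 0.38 (SE) on the log2 scale (5.25-fold, adjusted p = 0.00269, edgeR). In all, 8 of the 9 genes had groups that did not overlap, where 13.9% of all genes tested had such groups.

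The PAR bZIP factors and NFIL3 compete for the same element, so their levels were also set against each other in each library as normalised counts per kilobase of exon. The exon lengths join all transcripts of a gene in GENCODE M21. The annotation used in the counting was not given, so levels per kilobase compare genes only roughly. The summed level of Dbp, Tef and Hlf divided by that of Nfil3 was 0.492 to 1.54 (median 0.690) in the WAT PTU libraries, 35.4 to 69.3 (median 49.4) at 6 h and 0.542 to 1.29 (median 0.98) at 24 h. The 6 h libraries stood apart from both other groups, which overlapped each other. The makeup of the sum differed as well. Dbp held 19.1 to 39.7% of it in the PTU libraries, 65.8 to 70.1% at 6 h and 39.3 to 43.5% at 24 h. Tef held the largest mean share in the PTU group, 64.4%, and again at 24 h, 48.8%. These ratios rest on mRNA, and no protein was measured.

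**Figure D2:**
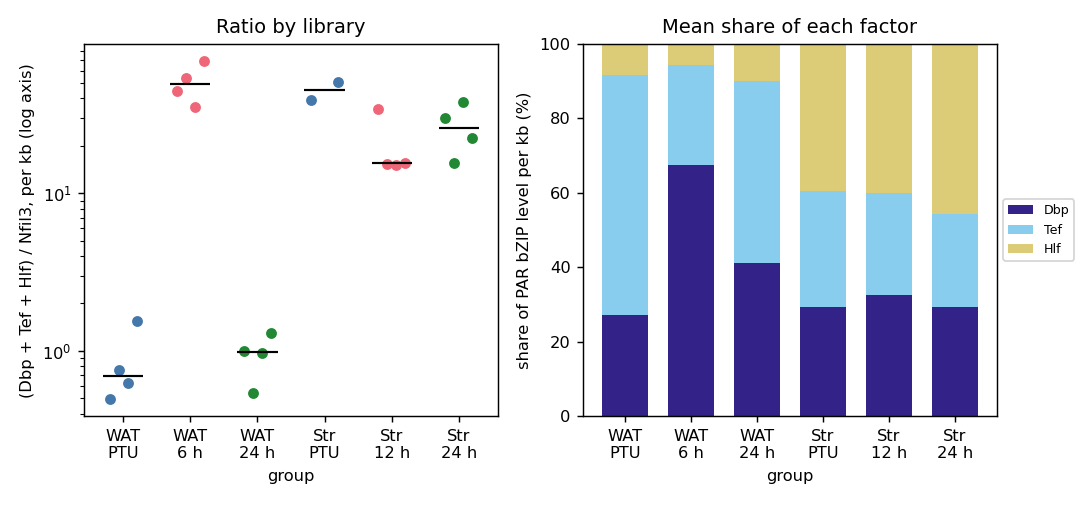
Left, the summed level per kilobase of Dbp, Tef and Hlf divided by that of Nfil3 (y axis, log scale) in each library of WAT and striatum (Str) by group (x axis), with the median as a line. Right, the mean share (%) of each factor in the PAR bZIP sum per group, in which the Dbp share in WAT is 27.3% in PTU, 67.6% at 6 h and 41.2% at 24 h, while in striatum Hlf has the largest mean share in each group.

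By level per kilobase in WAT, Nfil3 came first in the PTU group with a mean of 155 and Ciart last with 5.95. At 6 h the order was turned, with Dbp first at 963 and Nfil3 last at 29.7. Dbp was separate from the gene next to it in that order (Bhlhe40, mean 404), and Nfil3 from Rora (57.2). At 24 h Bhlhe40 (mean 198) and Nfil3 (153) led the order with overlapping ranges. Ciart was last again (5.95) with a range that did not reach that of Hlf.

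At 24 h in WAT, only Rora of these genes differed from the PTU controls at the threshold, 1 of 9 against 17.1% of all genes tested. Rora had 422, 490, 317 and 394 normalised counts at 24 h, all below the lowest PTU library, and fell by 1.02 on the log2 scale (adjusted p = 0.00324 with an SE of 0.19, edgeR), a fold of 0.492. It kept the call in all 20 alternatives run. In the same comparison 3 of 6 adipocyte markers were called lower (median log2 change -0.56), where 9.62% of all genes were. The sum of these markers was 384741 to 488643 normalised counts in the PTU libraries and 241180 to 344422 at 24 h, without overlap. Of the 5 brown adipocyte markers, 3 were called higher, where 7.45% of all genes were. Of the 5 markers of stratified or duct epithelium, 2 were called lower (median log2 change -5.38), where 9.62% of all genes were. Their sum was 232 to 531 normalised counts in the PTU libraries and 63.1 to 122 at 24 h, without overlap. The part of any of these markers in the change of Rora was not tested. In 1 of 9 genes the groups did not overlap, where 19.3% of all genes had such groups.

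Dbp had 198.7, 122.2, 173.0 and 195.9 normalised counts at 24 h. Its difference from the PTU libraries was 0.62 ± 0.39 (SE) on the log2 scale (adjusted p = 0.302, edgeR). In all, 3 of the PTU libraries lay below all 24 h libraries, and PTU replicate 4, which held the most muscle RNA, lay above them. Without that library Dbp was called higher by 1.29 (adjusted p = 0.00798, edgeR), as was Usp2, also by 1.29 (adjusted p = 0.0338, edgeR). This was the 1 alternative of 20 that called either gene, and the fit with the muscle markers as a covariate called neither. PTU replicate 1 had the next highest muscle marker sum of the controls, 194465, with Dbp at 56.7 and Usp2 at 269. The 24 h libraries had muscle marker sums of 35490 to 262501. With all libraries Usp2 had 449, 403, 287 and 419 normalised counts at 24 h and a difference of 0.92 ± 0.37 (SE, adjusted p = 0.108, edgeR). The part of muscle RNA in these values was not tested.

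Nfil3 had 311, 388, 291 and 253 normalised counts at 24 h, a log2 difference from the PTU libraries of -0.01 ± 0.20 (SE, adjusted p = 0.967, edgeR). Ciart had 9.6, 11.6, 14.9 and 17.7, with a difference of 0.02 ± 0.47 (SE, adjusted p = 0.983, edgeR). The 24 h values of Nfil3 spanned the whole control range, and those of Ciart lay within it. Tef (433 to 633 normalised counts) and Hlf (53.3 to 123.1) differed from the controls by -0.21 ± 0.17 and 0.49 ± 0.27 (SE) on the log2 scale (adjusted p = 0.437 and 0.230, edgeR). Bhlhe41 had 178, 72.7, 75.4 and 221 normalised counts at 24 h, a difference of -0.96 ± 0.39 (SE, adjusted p = 0.108, edgeR), which DESeq2 called (adjusted p = 0.0449). Bhlhe40 ranged from 466 to 1554 and differed by 0.58 ± 0.49 (SE, adjusted p = 0.444, edgeR).

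The 24 h libraries were also set against the 6 h libraries. Here 8 of 9 genes were called, against 7.41% of all genes tested: Nfil3 higher (3.07% of all genes were called higher) and Dbp, Tef, Hlf, Ciart, Bhlhe41, Rora and Usp2 lower (4.35% lower). These comparisons share the 6 h libraries with the one against PTU. Dbp fell by 4.06 on the log2 scale (adjusted p = 0.000193 with an SE of 0.41, edgeR), Ciart by 3.46 (SE 0.43, adjusted p = 0.000750, edgeR) and Hlf by 2.50 (SE 0.26, adjusted p = 0.000224, edgeR). Tef fell by 2.48 (SE 0.18, adjusted p = 5.62e-05, edgeR), and Nfil3 rose by 2.38 ± 0.22 (SE, adjusted p = 0.000124, edgeR). The changes of Bhlhe41 (-1.92 ± 0.39, adjusted p = 0.0140), Rora (-0.88 ± 0.19, adjusted p = 0.0166) and Usp2 (-1.47 ± 0.37, adjusted p = 0.0321, edgeR) were nearer the threshold. Usp2 kept the call in 5 of 12 fits that left out 1 library each. Bhlhe40 differed by -1.03 ± 0.49 (SE, adjusted p = 0.223, edgeR). The groups did not overlap for the 8 called genes, where 21.8% of all genes had such groups.

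Markers of stratified or duct epithelium also moved with this last comparison. Their sum was 143 to 2940 normalised counts at 6 h, with replicate 3 highest, 63.1 to 122 at 24 h and 232 to 531 in the PTU libraries, so the 6 h and 24 h groups did not overlap. Replicate 3 of the 6 h group was also the highest of its group for Dbp, Tef, Nfil3, Ciart, Bhlhe40 and Bhlhe41. The mean log2 level of the epithelium markers was then used as a covariate. The changes between 24 h and 6 h were -1.83 ± 0.57 for Bhlhe41, -0.91 ± 0.29 for Rora and -1.14 ± 0.54 for Usp2 (SE, adjusted p = 0.195, 0.204 and 0.386, edgeR). These 3 lost their calls, with a fold about as large as before and a wider error for Bhlhe41 and Rora, and the other 5 kept theirs. The part of these cells in the differences was not tested.

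**Figure D3:**
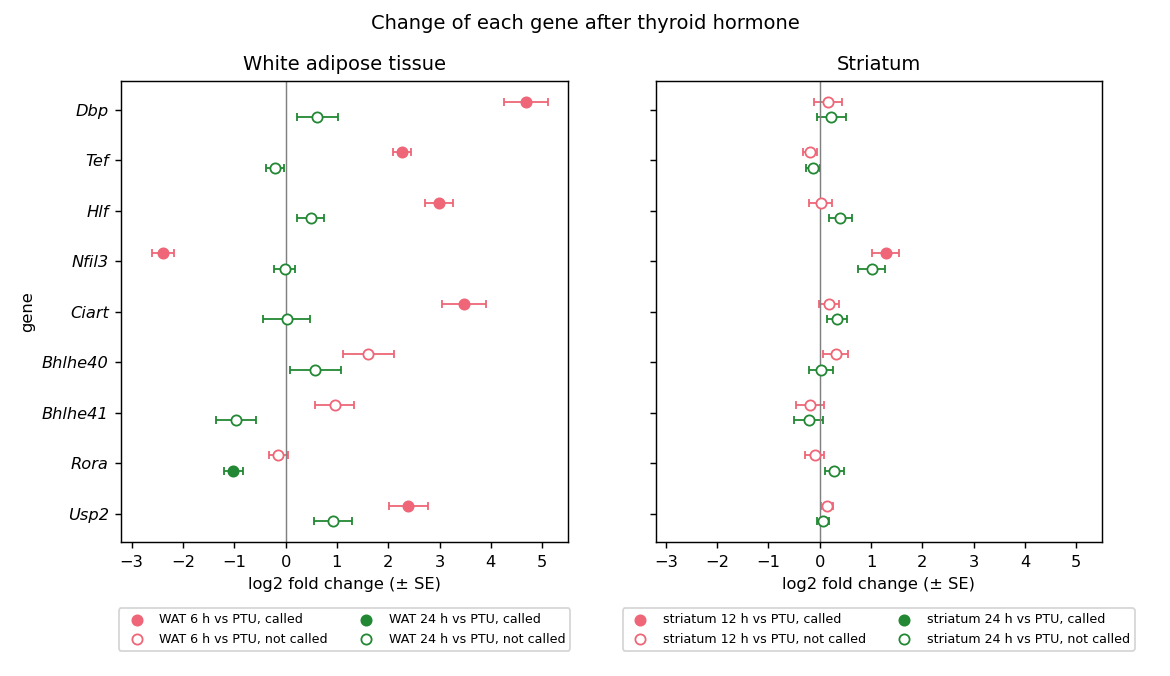
Log2 fold change against PTU (x axis, ± SE from the edgeR fit) of the 9 genes (y axis) in WAT (left, 6 h in red, 24 h in green) and striatum (right, 12 h in red, 24 h in green), with filled points for an adjusted p under 0.05. In WAT the values at 6 h run from -2.39 (Nfil3) to 4.68 (Dbp), and in striatum only Nfil3 at 12 h (1.29) is filled.

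The profile of Dbp over the 12 WAT libraries was compared with that of each of the 17927 other genes tested, by the root mean square difference of centred log2 CPM (counts scaled to a common library size). The 5 nearest were Ciart (0.81), Hlf (0.91), Per3 (0.95), Per2 (1.09) and Tef (1.12), where Dbp itself had a root mean square of 2.2. Usp2 was 7th nearest, Bhlhe40 22nd and Bhlhe41 32nd, and Rora came at place 3764. Nfil3 came at place 17800. The 12 libraries fall into 3 groups, so these values follow largely from the difference between the groups.

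The genes around these factors were followed in 4 lists. Of the 12 genes of the core clock loop, 4 were called higher and 3 lower in WAT at 6 h, where 4.18% and 3.05% of all genes were. The period genes Per2 and Per3 rose by 2.65 ± 0.21 and 2.74 ± 0.27 (SE) on the log2 scale (adjusted p = 1.85e-05 and 8.9e-05, edgeR), and Nr1d2, which encodes a repressor of Arntl, rose by 1.46 ± 0.25 (SE, adjusted p = 0.00391). Npas2 and Clock, which encode partners of BMAL1, fell by 3.99 and 0.81, and Arntl fell by 2.40 (adjusted p = 2.5e-05, 0.000206 and 6.45e-05, edgeR). Arntl thus went from 286 to 666 normalised counts in the PTU libraries to 70.6 to 112 at 6 h, on the side of Nfil3 and opposite to Dbp.

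At 24 h, 1 core gene was called higher and 3 lower than in the PTU libraries, where 7.45% and 9.62% of all genes were. Cry1 rose by 0.84 ± 0.21 (SE, adjusted p = 0.0150). Nr1d1, Cry2 and Nr1d2 fell by 1.67, 1.05 and 1.30 on the log2 scale (adjusted p = 0.000159, 0.000685 and 0.00431, edgeR). Nr1d1 and Rora, whose products act on the same elements in opposite directions, were therefore both below control at 24 h. Between 24 h and 6 h, 4 core genes were called higher and 5 lower (3.07% and 4.35% of all genes), with Npas2 (4.10), Arntl (2.6) and Clock (0.65) higher and Per3 (-3.39), Nr1d1 (-2.25) and Per2 (-2.23) lower on the log2 scale.

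Of 6 genes of clock protein turnover, Csnk1e, a kinase of the period proteins, was the 1 called at 6 h, higher by 0.44 ± 0.11 (SE, adjusted p = 0.0294, edgeR). At 24 h, 2 of the 6 were called lower, among them Fbxl21, which encodes an F-box protein that acts on cryptochromes, by 1.45 ± 0.26 (SE) on the log2 scale (adjusted p = 0.00288, edgeR). Between 24 h and 6 h, Fbxl21 (-1.43) and Csnk1e (-0.45) were called lower. Of 7 other rhythmic output genes, Wee1 (1.34), Coq10b (1.25) and Tspan4 (1.04) rose at 6 h. Tspan4 (1.71) and Wee1 (0.82) were called higher at 24 h, and Coq10b (-0.69) was called lower at 24 h than at 6 h. Of all genes, 4.18% were called higher at 6 h, and 7.45% higher and 9.62% lower at 24 h. Between 24 h and 6 h, 4.35% were called lower.

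Of 6 genes known as targets of PAR bZIP factors in liver, kidney and brain, 4 could be tested in WAT. Por, the electron donor of cytochromes P450, had 3372 to 5348 normalised counts in the PTU libraries and 9850 to 11690 at 6 h, and rose by 1.29 ± 0.16 (SE) on the log2 scale (adjusted p = 0.000443, edgeR). Pdxk, the kinase that makes active vitamin B6, rose by 1.10 ± 0.21 (SE, adjusted p = 0.00831) at 6 h and was still higher at 24 h by 1.12 ± 0.21 (SE, adjusted p = 0.00347), when the PAR bZIP genes were not called. Cyp2b10, a cytochrome P450, had 9.9 to 22.1 normalised counts in the PTU libraries, 8.8 to 26.3 at 6 h and 58.7 to 235.7 at 24 h, and was higher at 24 h by 3.21 ± 0.48 (SE, adjusted p = 0.000908, edgeR). Between 24 h and 6 h, Cyp2b10 (3.21) was called higher and Por (-0.86) lower.

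In striatum, 1 of the 9 genes was called at 12 h, against 0.96% of all genes tested. Nfil3 had 38.8 and 36.6 normalised counts in the 2 PTU libraries and 57.6, 101.8, 98.8 and 110.1 at 12 h. All TH libraries lay above both controls, with replicate 1 nearest to them. It rose by 1.29 ± 0.26 (SE) on the log2 scale (2.44-fold, adjusted p = 0.0489, edgeR), in the direction opposite to that of WAT at 6 h. The times differ between tissues, so these values stand side by side without a test.

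The call of Nfil3 in striatum lay at the edge of the threshold. It was kept in 2 of 10 fits that left out 1 library each, with the adjusted p between 0.0188 and 0.317 (edgeR), and DESeq2 gave 0.00186. Cortical markers summed to 9638 to 15191 normalised counts at 12 h and to 4079 and 7471 in the PTU libraries. With the mean log2 level of these markers as a covariate, the change of Nfil3 was 1.04 ± 0.28 (SE, adjusted p = 0.0726, edgeR). The 3 libraries highest in Nfil3 (98.8 to 110.1) were those of the 12 h group with Y-linked counts, and the library with high Xist had 57.6. With the mean log2 level of the Y-linked genes as a covariate the change was 1.12 ± 0.22 (SE, adjusted p = 0.0631, edgeR). Other markers also separated these groups: 8 projection neuron markers summed to 16268 to 27279 normalised counts at 12 h against 30893 and 45059 in the PTU libraries, and 5 macrophage markers to 794 to 992 against 1138 and 1182, with 0 of either list called. The part of these marker differences in the change was not tested.

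**Figure D4:**
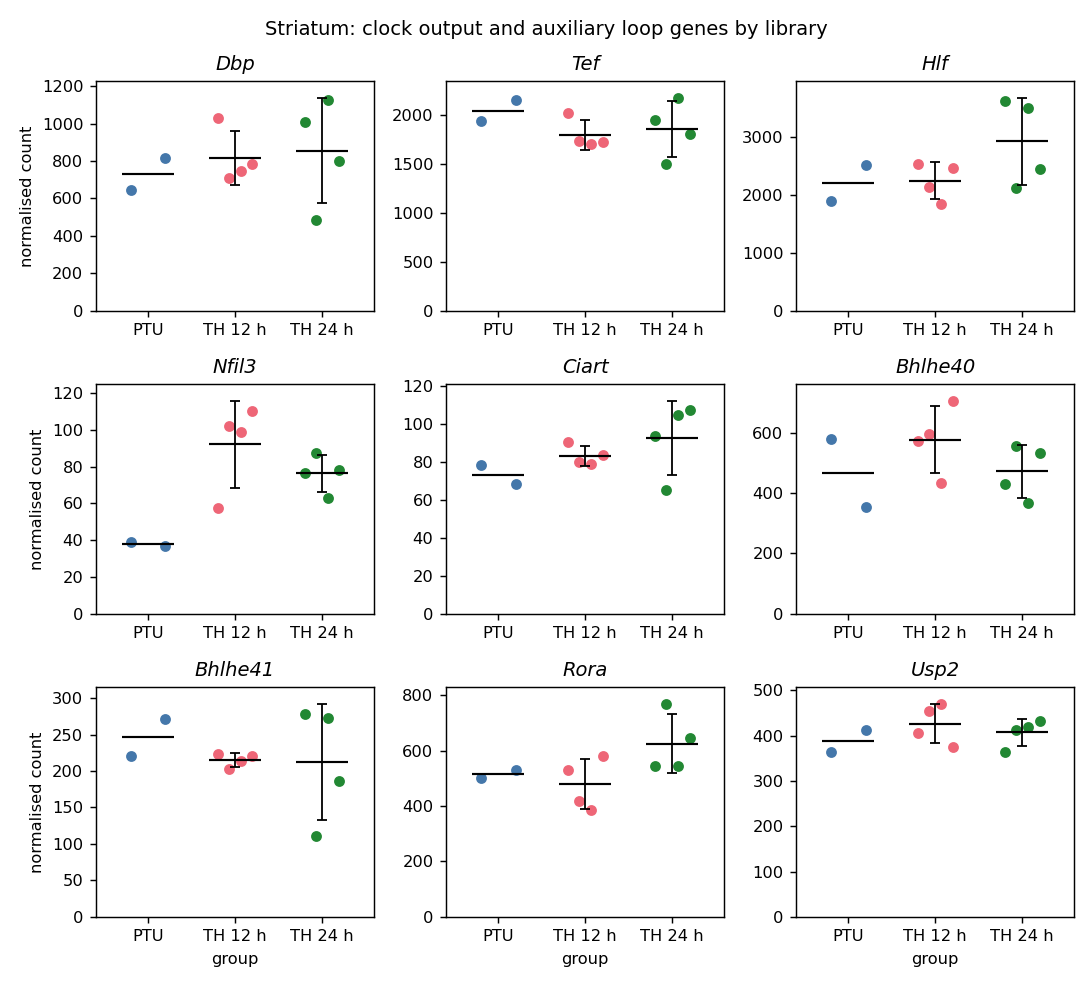
Normalised counts (y axis, linear, from 0) of the 9 genes in each striatum library by group (x axis), with 2 PTU, 4 TH 12 h and 4 TH 24 h libraries as points, the mean as a line and the SD as bars for the groups of 4. Nfil3 at 12 h (57.6 to 110.1) and 24 h (63.1 to 87.4) lies above both controls, and most other genes overlap between groups.

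None of the 9 genes was called in striatum at 24 h (0.348% of all genes tested were) or between 24 h and 12 h, where edgeR called none of the 15827 genes (2309 had an unadjusted p under 0.05, and DESeq2 called 230). Nfil3 had 76.2, 87.4, 63.1 and 78.3 normalised counts at 24 h, again above both controls in every library, with a difference of 1.02 ± 0.26 (SE) on the log2 scale (adjusted p = 0.186, edgeR). In the same order of replicates, the cortical marker sums of this group were 7430, 23910, 5708 and 13962, against 7471 and 4079 in the PTU libraries. The part of cortical tissue in these values was not tested. Groups did not overlap for Nfil3 and Ciart at 12 h and for Nfil3 and Rora at 24 h, where 36.4% and 18.2% of all genes had such groups.

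Dbp had 646.6 and 817.1 normalised counts in the striatum PTU libraries, 1032, 710, 745 and 785 at 12 h and 1011, 484, 1126 and 802 at 24 h. The groups overlapped, and the log2 differences were 0.16 ± 0.28 (SE, adjusted p = 0.786) and 0.23 ± 0.28 (SE, adjusted p = 0.825, edgeR). Replicate 2 of the 24 h group, the library with the most cortical and the fewest projection neuron markers, had the lowest Dbp, Tef, Ciart and Bhlhe41 and the highest Rora of the 10. With the mean log2 level of the cortical markers as a covariate, Dbp was called higher at both times. The values were 0.72 ± 0.13 (adjusted p = 0.0131, edgeR) at 12 h and 0.63 ± 0.12 (adjusted p = 0.0191, edgeR) at 24 h. Hlf was also called higher at 24 h (0.73 ± 0.12, adjusted p = 0.00668, edgeR). This covariate was added after the values had been seen. Without replicate 2 of the 24 h group and with no covariate, the difference of Dbp at 24 h was 0.40 ± 0.18 (SE, adjusted p = 0.492, edgeR).

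Hlf was the most abundant of the 9 genes per kilobase in every striatum group, with 1901 and 2519 normalised counts in the PTU libraries, 2533, 2131, 1840 and 2456 at 12 h and 3614, 2126, 3505 and 2448 at 24 h. Its differences from the PTU libraries were 0.02 ± 0.22 at 12 h and 0.40 ± 0.23 at 24 h (SE, adjusted p = 0.974 and 0.618, edgeR). Tef lay between 1498 and 2178 normalised counts and Usp2 between 364 and 470 over all 10 libraries. Ciart (65.0 to 107.3), Bhlhe40 (353 to 704), Bhlhe41 (111 to 279) and Rora (387 to 768) had log2 differences between -0.22 and 0.34 at both times. The ratio of the PAR bZIP sum to Nfil3 per kilobase was 39.1 and 51.1 in the PTU libraries. It was 15.2 to 34.5 (median 15.5) at 12 h and 15.5 to 37.8 (median 26.2) at 24 h. All TH libraries were thus below both controls, by a narrow gap at 24 h. The PAR bZIP sum per kilobase, 748 and 924 in the PTU libraries, overlapped between groups. It was 742 to 981 at 12 h and 670 to 1178 at 24 h. Nfil3 per kilobase was 18.1 and 19.1 in the PTU libraries, 28.4 to 54.4 at 12 h and 31.1 to 43.2 at 24 h. The ratio thus separated the groups as Nfil3 did, where 36.4% of all genes at 12 h and 18.2% at 24 h did so. The control ratio was of the size seen in WAT at 6 h and not in WAT controls. But the count tables differ in their rows (55341 in striatum, 47643 in WAT) and their annotation was not given, so levels cannot be tested across tissues.

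The 5 genes nearest to Dbp over the 10 striatum libraries were S100pbp (0.09), Rap1gap (0.12), Cntnap1 (0.13), Ampd3 (0.13) and Ppp1ca (0.13), by the same measure on the log2 scale, where Dbp itself had a root mean square of 0.34. No clock gene was among them. Of 15826 other genes, Bhlhe41 came at place 173, Hlf at 294, Ciart at 336 and Tef at 361. Usp2 came at place 5977, Rora at 11546, Bhlhe40 at 13169 and Nfil3 at 14449. Replicate 2 of the 24 h group was the lowest library for Dbp, Tef, Ciart and Bhlhe41, and its part in these places was not tested. In the 4 lists, 0 genes were called in striatum in any of the 3 comparisons by edgeR, with 11 of the 12 core clock genes, 6 of 6 turnover genes, 7 of 7 other outputs and 3 of 6 PAR bZIP targets tested.

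Only 24 h was sampled in both tissues, and the difference between their responses was tested there as an interaction over all 22 libraries. Of the 9 genes, 1 was called, against 2.98% of 18006 genes. The response of Rora was -1.02 in WAT and 0.28 in striatum on the log2 scale, and their difference was -1.30 ± 0.29 (SE, adjusted p = 0.0160, edgeR). The call was lost without either PTU library of striatum (adjusted p = 0.124 without replicate 3 and 0.0936 without replicate 6). Of 4 Y-linked markers, 3 were called higher in this test, where 1.06% of all genes were. They summed to 2837 to 3063 normalised counts in WAT at 24 h and 3030 to 3875 in the WAT PTU libraries. In striatum they summed to at most 6.84 at 24 h and to 0 and 1056 in the PTU libraries. Replicate 2 of the striatum 24 h group had Rora at 768, against 544 to 645 in the others. The part of these differences in the Rora response was not tested. Nfil3 differed by -1.03 ± 0.35 (SE, adjusted p = 0.132, edgeR) and Usp2 by 0.86 ± 0.46 (SE, adjusted p = 0.369, edgeR). Of the core clock list, Nr1d1 (-1.81), Cry2 (-1.16) and Nr1d2 (-1.39) were also called lower in WAT than in striatum, and of the other lists Tspan4 (1.38) and Pdxk (1.28) were called higher.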

How the data were processed

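RNA was measured in 10 striatum and 12 WAT libraries (Lexogen SENSE kit, NextSeq 500). What the authors deposited are raw counts per gene, in a table for each tissue. Per the study's methods and processing notes, Bowtie2 2.2.6.2 placed the reads on GRCm38 (mm10), those with a mapping quality under 10 were dropped, and htseqcount gave the reads of each gene. The annotation and strand setting were not given in the sources used here. A spreadsheet had turned 14 striatum and 15 WAT symbols into dates, and these rows (at most 0.201% of a library's counts) were left out. In WAT, 86 rows copied another row, with no gene described here among them.

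The tests used edgeR 4.0.16 under R 4.3.3 (TMM factors, quasi-likelihood F test, two-sided), with the 3 groups of a tissue in 1 model. A gene entered the test with a mean above 10 normalised counts (15827 genes of striatum, 17928 of WAT), and p-values were adjusted by Benjamini-Hochberg over them, with a threshold of 0.05 and no minimum fold. The tissue difference at 24 h was fitted over all 22 libraries. A normalised count is the count over the library's effective size, times the mean effective size of the tissue, and the SE of a log2 change is its size divided by the square root of F. DESeq2 1.42.0, other filters, covariates and fits without 1 library were alternatives. A marker covariate was the mean log2 CPM of the markers on its list. The script was tested on simulated counts.

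The 9 genes and the lists around them were chosen with earlier results of these data known. The genes named are all 9, up to 3 called genes per list and direction with the smallest p (1 gene of the turnover list is not reported here), and the 5 genes most like Dbp in each tissue.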

Additional observations from a re-analysis of the deposited data

Results flagged for a closer look

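In 45 groups of 4 libraries, the highest or lowest library of a gene was set against the rest of its group by Dixon's rule (a gap above the 95% critical share of the range, which chance gives in about 1 of 20 groups), and 3 groups passed. Hlf in WAT PTU replicate 4 stood at 103.3 normalised counts, where the other controls lay at 52.7 to 56.8. This library also had the highest Dbp and Tef of its group and the highest muscle marker sum. Nfil3 in WAT 6 h replicate 3 stood at 93.2 normalised counts, against 46.8 to 52.6 in the others, in the library with the highest epithelium marker sum. Tef in striatum 12 h replicate 1 stood at 2023 normalised counts, against 1711 to 1736 in the others, in the 1 library of its group with high Xist. The response of Rora at 24 h differed between the tissues in the interaction test, by -1.30 on the log2 scale for WAT minus striatum (adjusted p = 0.0160, edgeR). The causes of these values were not tested.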

How the results depend on the processing

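Of 17 called results for single genes, 318 of 342 alternatives kept the direction and the call, 24 lost the call and 0 changed sign. The number of the 9 genes called in WAT at 6 h was 6 without any 1 library, and it ranged from 1 to 3 at 24 h, where DESeq2 gave 2, and from 7 to 8 between 24 h and 6 h, where the epithelium covariate gave 5. In striatum it ranged from 0 to 1 at 12 h, where the Y-linked covariate gave 0, and it was 2 at 24 h with the cortical covariate, which was added after seeing the data. For the tissue difference it ranged from 0 to 1, with 0 when the 4 groups were fitted alone.

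Changes that were not called could take the other sign. With the cortical covariate the log2 change at 12 h in striatum was 0.049 for Tef and 0.38 for Bhlhe41, at 24 h 0.047 for Tef, -0.24 for Bhlhe40 and 0.19 for Bhlhe41, and between 24 h and 12 h -0.083 for Dbp and -0.0025 for Tef. With the Y-linked covariate that last comparison gave -0.20 for Dbp, -0.082 for Tef and 0.16 for Nfil3. In WAT the muscle covariate gave 0.034 for Rora at 6 h and -0.11 for Ciart at 24 h, and the epithelium covariate 0.13 for Nfil3 at 24 h. Leaving out 1 library, the striatum changes at 12 h ranged from -0.0075 to 0.34 for Dbp, -0.18 to 0.24 for Hlf and -0.0077 to 0.70 for Bhlhe40, those at 24 h from -0.30 to 0.40 for Bhlhe40 and -0.035 to 0.16 for Usp2, and those between the times from -0.094 to 0.25 for Dbp, -0.036 to 0.12 for Tef and -0.19 to 0.17 for Bhlhe41. In WAT they ranged from -0.27 to 0.030 for Rora at 6 h, and at 24 h from -0.14 to 0.071 for Nfil3 and -0.18 to 0.41 for Ciart. The tissue differences ranged from -0.16 to 0.15 for Tef, -0.13 to 0.37 for Hlf and -0.50 to 0.083 for Ciart. The cause was not tested.

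Counts over all genes moved more, from 152 to between 0 and 1442 in striatum at 12 h, 55 to between 0 and 243 at 24 h, and 0 to up to 416 between the times. In WAT they went from 1296 to between 576 and 2103 at 6 h, 3060 to between 1745 and 4264 at 24 h and 1329 to between 94 and 2444 between the times, and the tissue difference from 536 to between 179 and 882. With the replicate number as a block, 6, 1 and 7 of the 9 genes were called in WAT at 6 h, at 24 h and between the times (Usp2, adjusted p = 0.0521, lost its call), and 0 in striatum between 24 h and 12 h. Same-numbered libraries did not all deviate together (correlations of -0.395 to 0.267 over 6 striatum pairs and -0.472 to 0.394 over 12 WAT pairs), so the numbers were not taken to pair samples. The block could not be fitted for the striatum comparisons with PTU, since that group shares only 1 replicate number with the TH groups. With 2 striatum controls, leaving out either took the call of Nfil3.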
